A study of Mus musculus with 78 samples.

Results

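A set of 10 genes of the primitive streak, posterior mesoderm and tail bud were followed through ZFP143 depletion and retinoic acid (RA) differentiation of mouse embryonic stem cells (mESCs). They comprised 3 secreted signals (Wnt3, Wnt3a and Fgf8), 3 caudal-type homeobox factors (Cdx1, Cdx2 and Cdx4) and 4 further transcription factors (the homeobox genes Mixl1 and Evx1 and the T-box genes Eomes and Tbx6). They were taken by name, with earlier results of these data known, and all 10 were present among the 55401 genes of each of the 3 gene count tables. The cells were E14TG2a mESCs in which ZFP143, a zinc-finger transcription factor, carried an FKBP12 degradation tag at its endogenous locus, so that dTAG-V1 removes the protein. Each of the 3 tables held 4 groups of 2 libraries. Nascent transcripts were measured by transient transcriptome sequencing (TT-seq) in DMSO controls and at 2, 6 and 24 h of dTAG-V1, and mRNA by RNA-seq in DMSO controls and at 24, 48 and 72 h. The RA experiment held cells after 24 h of DMSO or dTAG-V1, and cells carried on to 48 h with RA for the last 24 h while DMSO or dTAG-V1 was kept (DMSO + RA and dTAG + RA). All control and depleted cells carried the tagged allele, and dTAG-V1 was used at 500 nM. Before RA, the cells grew in serum-free 2i medium with LIF, which holds a GSK3 inhibitor that activates Wnt signalling and a MEK inhibitor that blocks FGF signalling to ERK. RA was given in differentiation medium without these, so that RA, the change of medium and the later time point cannot be told apart in any RA contrast. In depleted cells, the later time point also meant 48 h of dTAG-V1 instead of 24 h. The difference between the RA effects of depleted and control cells includes this longer depletion.

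In the gastrulating embryo, Wnt3 is needed to form the primitive streak, and Wnt3a and Fgf8 keep the mesoderm progenitors of the later streak and tail bud. Cdx genes are direct responders to Wnt, FGF and RA signals and set posterior Hox expression, and Cdx1 is an early RA target. Eomes and Mixl1 act in mesendoderm, Tbx6 directs paraxial mesoderm, and Evx1 marks the posterior streak. Embryonic stem cells express such genes at low levels, and a change in a population's RNA can come from fewer expressing cells or from less RNA per cell, which bulk libraries cannot tell apart.

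Total gene counts per library were 9721568 to 16532077 in TT-seq, 10261851 to 15316700 in the RNA-seq time course and 13890761 to 27089033 in the RA experiment. Zfp143 mRNA does not check the depletion, since the tag acts on the protein, and it was higher in dTAG in every comparison with DMSO (log2 difference of 1.09 to 1.38). A pair of TT-seq libraries stood apart for these genes. The summed level of the 10 genes was 60.0 CPM (read counts scaled to library size) in replicate 2 of DMSO and 53.2 CPM in replicate 2 of 24 h dTAG, against 8.68 to 11.8 CPM in the other 6 TT-seq libraries. The 2 libraries of each group were biological replicates per the study's methods. The p-values rest on the spread within such pairs, estimated jointly over the 8 libraries of a table, and not on the 2 libraries of a single group. In the RA experiment, summed pluripotency markers (Pou5f1, Nanog, Sox2 and 7 others) were 6811 to 7046 CPM in DMSO and 5877 to 5900 CPM in dTAG. With RA they were 715 to 1056 CPM in DMSO and 1393 to 1636 CPM in dTAG.

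In DMSO before RA, Cdx1 had the highest level per kb of exon of the 10 genes, with 9.87 CPM per kb on average, followed by Eomes with 3.63. Tbx6 and Wnt3a (0.564 each), Mixl1 (0.417), Evx1 (0.267), Fgf8 (0.265) and Cdx2 (0.155 CPM per kb) lay far below them, and Cdx4 (0.0668) and Wnt3 (0.0427) had the lowest means, each with no read in 1 of the 2 libraries. Tbx6 and Wnt3a could not be put in order, since their libraries overlapped, and the same held for Evx1 with Fgf8, for Cdx2 with Cdx4 and for Cdx4 with Wnt3. In dTAG + RA, the order was Cdx1 (18.3), Tbx6 (2.97), Eomes (1.95), Fgf8 (1.34), Wnt3 (1.04), Cdx2 (0.761), Mixl1 (0.646), Wnt3a (0.553), Cdx4 (0.241) and Evx1 (0.0742 CPM per kb). The libraries of Cdx2, Mixl1 and Wnt3a overlapped one another there, so that these 3 could not be put in order. Wnt3 thus stood among the lowest levels per kb in DMSO and above 5 of the other genes in dTAG + RA.

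**Figure D1:**
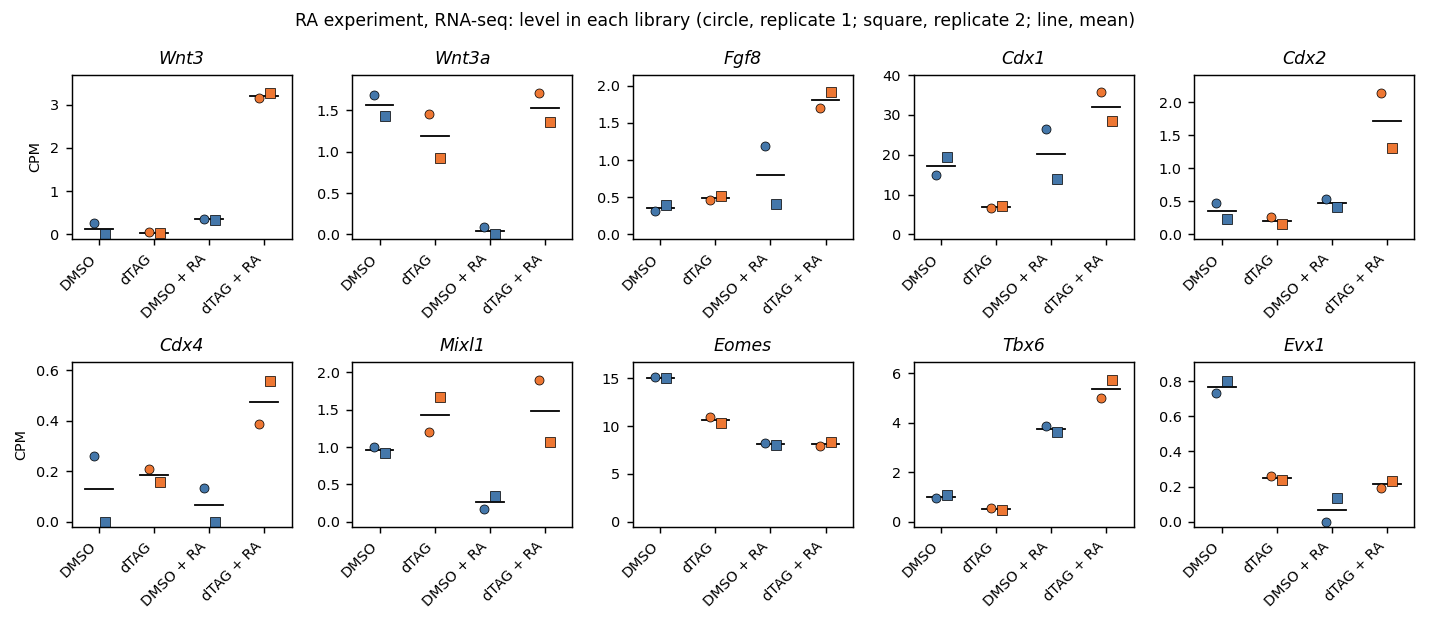
Level in CPM (vertical axes, linear, each from 0) of the 10 genes in the 8 libraries of the RA experiment, with the 4 groups on the horizontal axes. Circles and squares are replicates 1 and 2, lines the group means, blue DMSO and orange dTAG. Wnt3 was at 3.16 and 3.26 CPM in dTAG + RA and at most at 0.353 CPM in the other 6 libraries, and Wnt3a was at 0.0883 CPM or at 0 in DMSO + RA and at 0.917 CPM or more elsewhere.

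With RA present, Wnt3a and Mixl1 were higher in depleted than in control cells. In the fit over 15915 genes, 6 of the 10 passed the filter on low counts, of which these 2 were called higher in dTAG + RA than in DMSO + RA and 0 lower, where 9.10% of all tested genes were called higher and 7.36% lower. A gene was called when edgeR placed its change beyond 1.5-fold at an adjusted p under 0.01. Cdx2, Wnt3 and Evx1 passed only a laxer filter (edgeR's filterByExpr, which keeps 17858 genes), and Cdx4 passed neither. Genes that pass through the group in which they are high had to differ, so their fitted values are given as a description, with no p. Both dTAG + RA libraries lay above both DMSO + RA libraries for 9 of the 10 genes, all but Eomes. These were 5 of the 6 tested members, beside 40.1% of all tested genes. The 5 include Fgf8, which passed the filter through dTAG + RA, so this count lends no support.

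Among the secreted signals, Wnt3a had 2 counts in replicate 1 of DMSO + RA (0.0883 CPM) and 0 in replicate 2. It had 35 and 29 counts in dTAG + RA (1.70 and 1.35 CPM). The log2 difference was 4.68 (SE 0.64, edgeR adjusted p = 1.51e-05). Before RA, Wnt3a was at 32 and 25 counts in DMSO (1.68 and 1.43 CPM) and at 28 and 23 counts in dTAG (1.45 and 0.917 CPM), with overlapping groups. Thus Wnt3a fell with RA in control cells (log2 change of -4.71, SE 0.64, edgeR adjusted p = 4.23e-06), and in depleted cells its levels with and without RA overlapped (log2 change of 0.39). The difference between the RA effects was 5.11 on the log2 scale (SE 0.75, edgeR adjusted p = 1.46e-05). These Wnt3a calls were kept under every alternative run, but their sizes rest on 2 counts in DMSO + RA. With a library left out, the log2 difference between the RA groups was 4.02 to 7.91, the RA change in control cells -7.94 to -4.05 and the difference between the RA effects 4.45 to 8.34. The extreme values came without replicate 1 of DMSO + RA, which left 0 counts in that group, and they depend on the prior count.

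Wnt3 had 5 and 0 counts in DMSO, 1 and 1 in dTAG and 8 and 5 in DMSO + RA. In dTAG + RA it had 65 and 70 counts (3.16 and 3.26 CPM), far above the other 6 libraries. Over summed counts, Wnt3 was 9.21-fold higher in dTAG + RA than in DMSO + RA (95% exact interval 5.21 to 17.7, counting error only). Against depleted cells without RA, the ratio was 71.2 (19.3 to 594), an interval as wide as 2 counts allow. With filterByExpr, the log2 difference between dTAG + RA and DMSO + RA was 3.15 (SE 0.40), the RA change in depleted cells was 5.91 (SE 0.57), and the difference between the RA effects was 4.63 (SE 1.30). Wnt3 and Wnt3a thus reached their separation of dTAG + RA from DMSO + RA from different sides, Wnt3 being near 0 in the other groups and Wnt3a being near 0 in DMSO + RA.

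Fgf8, the streak FGF ligand, had 6 and 7 counts in DMSO (0.315 and 0.401 CPM), 9 and 13 in dTAG (0.467 and 0.518 CPM), 27 and 6 in DMSO + RA (1.19 and 0.409 CPM) and 35 and 41 in dTAG + RA (1.70 and 1.91 CPM). The DMSO + RA libraries stood far apart from each other, and both lay under those of dTAG + RA. Fgf8 passed the filter with exactly 4 libraries above 10 counts, of which 2 were those of dTAG + RA, so its fitted values too are a description. The log2 change with RA was 1.85 in depleted cells (SE 0.38) and 1.28 in control cells (SE 0.50), and the difference between them was 0.58 (SE 0.68). The log2 difference between dTAG + RA and DMSO + RA was 1.05, and 2.13 without replicate 1 of DMSO + RA.

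Of the Cdx genes, Cdx1 was at 15.0 and 19.5 CPM in DMSO and at 6.54 and 7.17 CPM in dTAG before RA (286, 341, 126 and 180 counts). With RA it was at 26.4 and 14.0 CPM in DMSO and at 35.7 and 28.4 CPM in dTAG (598, 205, 735 and 610 counts). Depleted cells therefore held less Cdx1 RNA before RA and the groups did not overlap, whereas with RA the dTAG libraries were the higher ones and the DMSO + RA pair was widely spread. Cdx1 rose with RA in depleted cells (log2 change of 2.22, SE 0.20, edgeR adjusted p = 6.09e-08). In control cells the log2 change was 0.26, and -0.30 without replicate 1 of DMSO + RA. The RA effects differed by 1.95 on the log2 scale (SE 0.28, edgeR adjusted p = 1.22e-05), a call kept under every alternative run. The dTAG + RA against DMSO + RA difference of 0.63 (SE 0.18, edgeR adjusted p = 0.539) was not called, but it was called without replicate 1 of DMSO + RA (1.20, edgeR adjusted p = 0.00143).

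Before RA, Cdx1 was the member called lower in dTAG (log2 difference of -1.32, SE 0.22, edgeR adjusted p = 0.00483), where 3.66% of tested genes were lower and 2.74% higher. The call was lost without replicate 2 of DMSO (-1.12), without either replicate of dTAG (-1.26 and -1.40), with library size as the only scaling (-1.19) and with DESeq2 (-1.36, adjusted p = 0.493). No member was called higher in this comparison with edgeR, with DESeq2 or at an unadjusted p under 0.05 (0 in each case).

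Cdx2, which also specifies trophectoderm, had 9 and 4 counts in DMSO, 5 and 4 in dTAG, 12 and 6 in DMSO + RA and 44 and 28 in dTAG + RA (2.14 and 1.30 CPM in the last). The dTAG + RA libraries were above all others. Summed over libraries, Cdx2 was 3.55-fold higher in dTAG + RA than in DMSO + RA (95% exact interval 2.09 to 6.32), and its fitted log2 difference with filterByExpr was 1.79 (SE 0.42). The difference between its RA effects was 2.58 (SE 0.80) in that fit. Over the list of 10 trophectoderm markers, 8 were tested, and 2 (Ascl2 and Hand1) were higher in dTAG + RA. The summed level of that list was 119 to 125 CPM in DMSO + RA and 101 to 111 CPM in dTAG + RA. Cdx4 had 5 and 0 counts in DMSO, 4 and 4 in dTAG, 3 and 0 in DMSO + RA and 8 and 12 in dTAG + RA, the highest pair, with a ratio of 5.91 between the RA groups (95% exact interval 1.75 to 31.1) that rests on 3 counts in DMSO + RA.

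Mixl1, a homeobox factor of the streak, had 19 and 16 counts in DMSO (0.997 and 0.917 CPM) and 23 and 42 in dTAG (1.19 and 1.67 CPM). With RA it had 4 and 5 counts in DMSO (0.177 and 0.341 CPM) and 39 and 23 in dTAG (1.90 and 1.07 CPM). As with Wnt3a, the DMSO + RA pair stood below all other libraries. The difference between dTAG + RA and DMSO + RA was 2.58 on the log2 scale (SE 0.48, edgeR adjusted p = 9.17e-04). It was lost with DESeq2 (2.61, adjusted p = 0.0296), without replicate 1 of DMSO + RA (2.10) and without replicate 1 of dTAG + RA (2.14). Mixl1 fell with RA in control cells (log2 change of -1.96, SE 0.53, edgeR adjusted p = 0.00905), and that call was lost when any 1 of the 4 libraries was left out (-2.40 to -1.48), with DESeq2 (-1.97, adjusted p = 0.118), with library size as the only scaling (-1.64, edgeR adjusted p = 0.031) and with the replicate number as a block (-1.96, edgeR adjusted p = 0.0123). In depleted cells the RA change was 0.02. The difference between the RA effects was 1.98 (SE 0.63, edgeR adjusted p = 0.015) and was lost with DESeq2 (2.05), with the thresholds of the other RNA-seq contrasts (edgeR adjusted p = 0.0713) and without replicate 1 of DMSO + RA (1.49) or of dTAG + RA (1.57).

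Tbx6 rose with RA in both backgrounds. It was at 0.945 and 1.09 CPM in DMSO and at 3.89 and 3.62 CPM in DMSO + RA, and at 0.571 and 0.478 CPM in dTAG and at 5.0 and 5.73 CPM in dTAG + RA. The depleted pair was thus the lower one before RA and the higher one with RA. The RA change was 1.89 on the log2 scale in control cells (SE 0.27, edgeR adjusted p = 3.06e-05) and 3.35 in depleted cells (SE 0.27, edgeR adjusted p = 3.12e-09). The RA effects differed by 1.47 (SE 0.42, edgeR adjusted p = 0.00795), a difference lost without replicate 2 of dTAG (1.33, edgeR adjusted p = 0.0533) and with the thresholds used for the other RNA-seq contrasts (edgeR adjusted p = 0.058). Neither end of it was called alone, the difference being -0.96 before RA (SE 0.37, edgeR adjusted p = 0.381) and 0.51 with RA (SE 0.20, edgeR adjusted p = 0.972).

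Eomes, a T-box factor of mesendoderm, showed another order of groups. It was at 15.1 and 15.0 CPM in DMSO, 11.0 and 10.4 CPM in dTAG, 8.26 and 7.98 CPM in DMSO + RA and 7.87 and 8.33 CPM in dTAG + RA. The groups with RA overlapped, and both lay under the groups without RA. Eomes fell with RA in control cells (log2 change of -0.89, SE 0.13, edgeR adjusted p = 0.00874), a call lost when any 1 of the 4 libraries was left out (-0.92 to -0.87), with no filter on low counts (-0.91), with only the groups compared in the fit (-0.89), with DESeq2 (-0.91) and with library size as the only scaling (-0.57). Its depletion differences were -0.50 before RA (SE 0.12) and -0.01 with RA, of which neither was called, and the latter changed sign under alternatives. Evx1 had 14 and 14 counts in DMSO, 5 and 6 in dTAG, 0 and 2 in DMSO + RA and 4 and 5 in dTAG + RA. The control pair without RA was the highest. In the filterByExpr fit, the RA change of Evx1 in control cells was -3.72 (SE 0.78) and the difference between its RA effects 3.45 (SE 1.13). Evx1 overlaps Evx1os and Eomes overlaps Gm33460 on the opposite strand, and the strand setting of the RNA-seq counts is not given in the sources used here.

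Of the 6 tested members, 4 were called between DMSO + RA and DMSO (Wnt3a, Mixl1 and Eomes lower and Tbx6 higher), beside 43.9% of all tested genes in either direction. Between dTAG + RA and dTAG, Tbx6 and Cdx1 were called, both higher, beside 43.5%. Fgf8, which passed the filter through dTAG + RA, is left out of this count, and its call was lost without either replicate of dTAG and with DESeq2. With DESeq2 these counts were 2 and 2. The RA effects differed, at an adjusted p under 0.05 and a log2 difference above 0.5, in the positive direction for 4 of the 6 tested members (Cdx1, Wnt3a, Tbx6 and Mixl1) and in the negative direction for 0, where 13.7% of tested genes passed in the positive and 18.0% in the negative direction. At an unadjusted p under 0.05 the counts were 5 and 0, and with DESeq2 they were 3 and 0. The median over the 6 tested members, with Fgf8, which was not called, among them, was 1.71 and that over all tested genes -0.07. Eomes had a difference of 0.50 (SE 0.19, edgeR adjusted p = 0.0368), short of the size required. It was called with size factors of DESeq2 (0.55, edgeR adjusted p = 0.0216), with library size as the only scaling (0.57, edgeR adjusted p = 0.0189) and without replicate 1 of dTAG + RA (0.60, edgeR adjusted p = 0.0353).

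**Figure D2:**
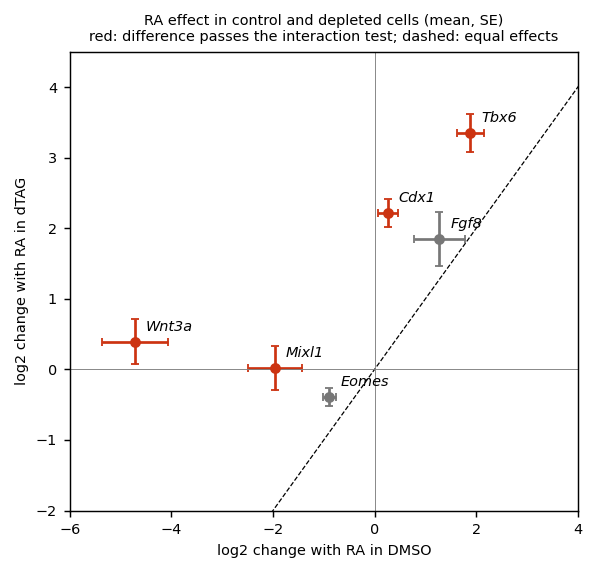
Log2 change with RA in DMSO (horizontal axis) against that in dTAG (vertical axis) for the 6 members that passed the filter, with the SE of the edgeR fit as bars. Points above the dashed line of equal effects had the more positive RA effect in depleted cells, and red marks Cdx1 (0.26 and 2.22), Wnt3a (-4.71 and 0.39), Tbx6 (1.89 and 3.35) and Mixl1 (-1.96 and 0.02), whose difference passed the test.

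Other genes of these pathways moved both ways. Of 20 streak and posterior axis genes outside the 10 members, 15 were tested, and the RA effect was more positive in depleted cells for 4 (among them T, the Brachyury gene, with a log2 difference of 2.92, SE 0.65, and the Wnt target Sp5 with 2.99, SE 0.47, edgeR adjusted p = 2.99e-05) and more negative for 3, with a median of -0.26. T was on average highest in dTAG + RA and lowest in dTAG, as Cdx2 was, with 0.656 CPM on average in DMSO, 0.263 in dTAG, 0.472 in DMSO + RA and 1.46 in dTAG + RA. Of 17 tested Wnt pathway targets and feedback genes, 6 were more positive (Axin2 by 1.40 and Rnf43 by 1.98) and 2 more negative, with a median of -0.03. Of 15 FGF receptors and ERK feedback genes, 7 were more positive (Etv4, an ERK-induced factor, by 1.53, and Dusp4, an ERK phosphatase, by 1.36) and 1 more negative, with a median of 0.43. Of 14 RA response genes, 2 were more positive and 7 more negative (Dhrs3, a retinal reductase, by -3.58 and the homeobox gene Meis1 by -3.41), with a median of -1.51. The RA response genes rose with RA in both backgrounds (13 of 14 in DMSO and 11 in dTAG), so that a more negative effect was a smaller rise in these counts. T and Rnf43, and Hand1, Meox1 and Zic1 among the cell type markers, passed the filter through groups in which they are high, so their values are a description.

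Among cell type markers, 9 of 10 pluripotency genes had a more positive RA effect in depleted cells and 0 a more negative one (median 1.12, with Esrrb at 2.84 and Tbx3 at 1.78), where all 10 fell with RA in both backgrounds. Mesoderm markers gave 3 more positive (Snai1 by 3.54) and 1 more negative of 9 tested, trophectoderm markers 2 and 1 of 8, primitive endoderm markers 0 and 4 of 10, and neural markers 1 and 3 of 5. Between dTAG + RA and DMSO + RA directly, 9 RA response genes were lower and 0 higher (Crabp2 by -3.23), 5 pluripotency genes were higher and 0 lower, and the streak list had 2 higher (Tdgf1 by 2.31 and Mesp2 by 2.23) and 1 lower. The Wnt list had 1 higher (Porcn, the Wnt acyltransferase, by 1.11) and 2 lower (Tcf7l1 by -1.21), and the FGF list 3 higher (Etv4 by 1.35 and Spry2 by 1.15) and 1 lower. Among mesoderm markers, 3 were higher (Kdr by 2.63) and 1 lower (Meox1 by -3.76), among primitive endoderm markers 2 higher and 1 lower, and among neural markers 1 higher (Zic1 by 1.67) and 2 lower (Pax6 by -1.97). The part of pluripotent or other cells in the members' differences was not tested.

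In the RNA-seq time course, without RA, most of the 10 genes were near the counting limit, and Cdx1 was higher after 72 h of dTAG. Of the 13925 tested genes, 2 members (Cdx1 and Eomes) passed the filter, and Wnt3, Mixl1 and Tbx6 passed filterByExpr (14982 genes). Cdx2 had 0 counts in all 8 libraries. At 24 h, 0 of the 2 were called lower or higher with edgeR, with DESeq2 or at an unadjusted p under 0.05, where 3.41% of tested genes were lower and 2.32% higher. At 48 h the counts were again 0 by each of these, beside 7.71% and 10.5%. At 72 h, 1 (Cdx1) was higher and 0 lower, beside 13.7% and 12.0%, with 2 higher and 0 lower at an unadjusted p under 0.05 and 0 of either by DESeq2.

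Cdx1 was at 1.29 and 1.64 CPM in DMSO, 0.807 and 1.09 CPM after 24 h of dTAG, 1.44 and 2.14 CPM after 48 h, and 3.98 and 5.66 CPM after 72 h. Cdx1 was thus slightly lower at 24 h and above all other libraries at 72 h. The log2 difference from DMSO was -0.65 after 24 h (SE 0.41, edgeR adjusted p = 1), 0.26 after 48 h and 1.72 after 72 h (SE 0.29, edgeR adjusted p = 2.75e-04). Summed levels of the marker lists differed as well between DMSO and 72 h, and calls within a list could go both ways. Pluripotency markers were at 5674 to 5779 CPM in DMSO and 4219 to 4271 CPM at 72 h (3 lower and 1 higher of 10 tested), primitive endoderm markers at 417 to 418 and 654 to 687 CPM (0 and 4 of 8), and mesoderm markers at 11.3 to 12.8 and 19.9 to 20.5 CPM (0 and 2 of 6). Trophectoderm markers were at 297 to 298 and 166 to 169 CPM (2 and 1 of 6), and neural markers at 218 to 227 and 138 to 146 CPM, although 2 were lower and 2 higher of 4 tested and their median log2 change was 0.76. Streak and posterior axis genes outside the members were at 963 CPM in both DMSO libraries and 487 to 496 CPM at 72 h, with 5 lower and 3 higher of 12 tested. The part of these lists in the Cdx1 difference was not tested. The 72 h call was lost without replicate 2 of 72 h (1.40, edgeR adjusted p = 0.0176) and with DESeq2 (1.71, adjusted p = 0.0631). From 48 h to 72 h the change of 1.46 (SE 0.28, edgeR adjusted p = 0.0217) was not called, where 0.862% of genes were called higher and 0.847% lower, and from 24 h to 48 h neither member was called, where 2.32% were higher and 0.912% lower. Eomes was at 8.73 and 8.62 CPM in DMSO, 9.12 and 6.02 CPM after 24 h, 9.36 and 12.1 CPM after 48 h, and 15.9 and 16.8 CPM after 72 h. The 72 h pair was the highest, with a log2 difference of 0.92 (SE 0.15, edgeR adjusted p = 0.0152) that was not called and that was called with library size as the only scaling (1.14, edgeR adjusted p = 3.1e-04) or with only DMSO and 72 h in the fit (0.91, edgeR adjusted p = 0.00914).

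**Figure D3:**
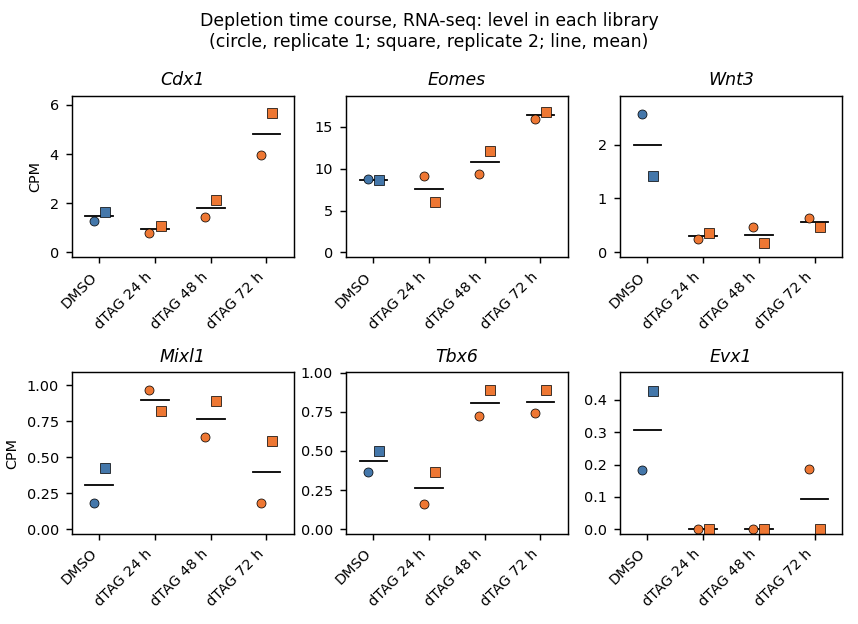
Level in CPM (vertical axes, linear) of 6 of the genes in the 8 libraries of the RNA-seq depletion time course, with DMSO in blue, dTAG in orange, circles and squares for replicates 1 and 2 and lines for means. Cdx1 and Eomes were highest at 72 h, and Wnt3 was at 2.57 and 1.43 CPM in DMSO and at or under 0.648 CPM in all 6 dTAG libraries.

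Wnt3 had 28 and 20 counts in DMSO, 3 and 4 counts after 24 h, 6 and 2 at 48 h, and 7 and 7 counts in the libraries of 72 h, so that all dTAG libraries lay under both DMSO libraries. Over summed counts, it was 6.43-fold lower at 24 h (95% exact interval 2.89 to 16.8), 5.71-fold lower at 48 h (2.68 to 14.0) and 3.50-fold lower at 72 h (1.90 to 6.88). In the filterByExpr fit the log2 differences were -2.67 (SE 0.54), -2.51 (SE 0.53) and -1.83 (SE 0.47). Wnt3 passed that filter through DMSO, the group in which it is high, so these too are a description. Evx1 had 2 and 6 counts in DMSO, 0 in the 4 libraries of 24 h and 48 h, and 2 and 0 at 72 h. Against a floor of 3 counts per group, it was at least 2.50-fold lower at 24 h and at least 2.54-fold lower at 48 h, and with the counting error of the 8 DMSO counts the exact 95% limits were 1.60-fold and 1.63-fold. Mixl1 had 2 and 6 counts in DMSO, 12 and 9 counts after 24 h, 8 and 10 at 48 h, and 2 and 9 counts in the libraries of 72 h, and the fitted log2 difference at 24 h was 1.45 (SE 0.63). Tbx6 had 2 to 13 counts per library, Fgf8 1 to 6, Wnt3a 1 to 4 and Cdx4 0 to 5. Of the 12 ratios of these 4 genes to DMSO, 2 had an interval that left out 1, namely Cdx4 at 24 h (5.34-fold higher, 95% exact interval 1.14 to 50.1) and Fgf8 at 48 h (5.25-fold higher, 1.12 to 49.3), each against 2 summed counts in DMSO.

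The 24 h depletion was thus measured in both RNA-seq tables, which were normalized separately. Cdx1 had log2 differences of -0.65 and -1.32 and Eomes of -0.18 and -0.50 in the time course and the RA experiment. Wnt3 went from 48 to 7 summed counts in the time course and from 5 to 2 in the RA experiment. Evx1 went from 8 to 0 and from 28 to 11 counts, and Mixl1 from 8 to 21 and from 35 to 65 counts. Cdx1, Evx1 and Tbx6 were lower and Mixl1 and Fgf8 higher in dTAG in both tables, with groups that did not overlap in either. Over all tested genes, both dTAG libraries lay below both DMSO libraries for 34.6% in the time course and 31.1% in the RA experiment, and above them for 36.6% and 40.7%. Of the 10 genes, 4 lay below and 2 above in the RA experiment. The share of all genes separated the same way in both tables was not computed. Evx1, Tbx6, Mixl1 and Fgf8 did not pass the filter in the time course, so the match between tables is a description. For Eomes the groups overlapped in the time course, and for Wnt3 in the RA experiment. The control levels did not match, since Cdx1 was at 1.29 and 1.64 CPM in DMSO of the time course and at 15.0 and 19.5 CPM in DMSO of the RA experiment.

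In nascent RNA, 4 members (Cdx1, Wnt3a, Eomes and Tbx6) passed the filter among 17870 genes, and 0 were called lower or higher at 2, 6 or 24 h with edgeR or with DESeq2. At an unadjusted p under 0.05 there was 1 lower member at 6 h and 0 at 2 h and 24 h, and 0 higher ones in these comparisons. Over all tested genes, 2.43% were lower and 0.168% higher at 2 h. These shares were 2.83% and 0.397% at 6 h, and 4.09% and 2.02% at 24 h. Between 24 h and 6 h, 0 members were called and 0% of all genes (90 genes lower and 59 higher with DESeq2), with 1 member higher at an unadjusted p under 0.05.

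Cdx1 had 43 and 598 counts in DMSO, 55 and 61 counts after 2 h, 40 and 40 at 6 h, and 22 and 535 counts in the libraries of 24 h. The spread within DMSO and within 24 h was larger than any difference between groups. With all libraries, the log2 difference was -2.65 at 2 h (SE 1.22, edgeR adjusted p = 0.47) and -2.97 at 6 h (SE 1.26, edgeR adjusted p = 0.268). With replicate 2 of DMSO and of 24 h left out, the remaining 6 libraries were at 2.16 to 4.45 CPM. Wnt3a had 10 and 93 counts in DMSO, 18 and 10 counts after 2 h, 14 and 12 at 6 h, and 13 and 78 counts in the libraries of 24 h, with the same 2 libraries high. Cdx2 shared this, with 13 and 10 counts in those libraries and 0 to 2 in the other 6. Eomes and Tbx6 did not, with 17 to 52 and 5 to 23 counts per library. The cause of the split between libraries was not tested. Tbx6 had 7 and 11 counts in DMSO, 23 and 18 counts after 2 h, 19 and 17 at 6 h, and 11 and 5 counts in the libraries of 24 h, with the 2 h and 6 h pairs above DMSO and a log2 difference of 0.86 at 2 h and 0.87 at 6 h that was not called.

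**Figure D4:**
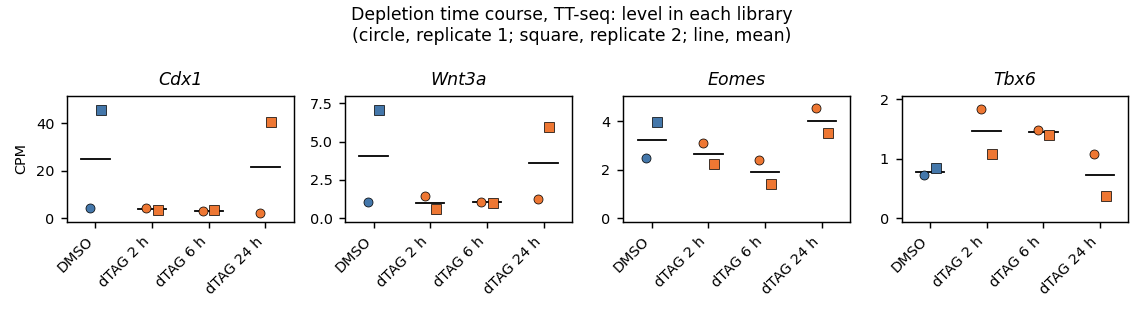
Level in CPM (vertical axes, linear) of the 4 tested members in the 8 TT-seq libraries, with DMSO in blue, dTAG in orange, circles and squares for replicates 1 and 2 and lines for means. Cdx1 and Wnt3a were high in replicate 2 of DMSO and of 24 h dTAG alone (45.6 and 40.6 CPM for Cdx1), and Tbx6 was highest at 2 h and 6 h.

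One of the 10 genes, Tbx6, had a ZFP143 ChIP-seq peak in its promoter window, against 10.0% of 22028 protein-coding genes. The Tbx6 peak lay at chr7:126780173-126781038 (mm10, GRCm38) with 83.3-fold enrichment over background, its summit 714 bp upstream of the start site. The other 9 start sites were 18.5 kb (Eomes) to 842.9 kb (Evx1) from the nearest ZFP143 peak. CTCF peaks lay in the promoter windows of 2 members (Eomes and Tbx6, against 16.5% of genes), whereas that of Cdx1 lay downstream of its window. Within 10 kb of the start, 7 members had a CTCF peak (against 40.5%). The peak lists are single lists with no replicates. The 201 bases around the summit of the Tbx6 peak are shown because they hold the letters ACTACAA, the core of the ZFP143 binding motif, 747 bp upstream of the start site. They span chr7:126780669-126780869 on the forward strand of GRCm38.p6, and capitals mark those letters. Of all 3189 ZFP143 peaks, 18.4% held ACTACAA on either strand within the same length around the summit.

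Tbx6 peak: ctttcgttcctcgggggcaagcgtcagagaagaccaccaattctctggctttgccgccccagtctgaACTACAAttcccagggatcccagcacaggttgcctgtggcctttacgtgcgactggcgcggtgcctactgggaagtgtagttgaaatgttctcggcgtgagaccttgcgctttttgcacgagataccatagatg

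**Figure D5:**
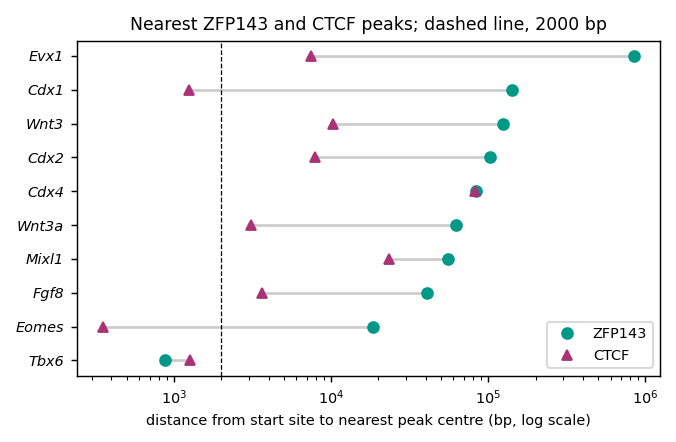
Distance in bp (horizontal axis, log scale) from the start site of each of the 10 genes to the centre of the nearest ZFP143 peak (circles) and CTCF peak (triangles), with 2000 bp dashed. Tbx6 was the single gene with a ZFP143 peak inside the dashed line, and Eomes, Cdx1 and Tbx6 had CTCF peaks inside it.

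Promoter sequences from RefSeq (GRCm38.p6, 250 bases before to 50 after the start) matched 7 of the 10 genes, Cdx1, Mixl1 and Fgf8 being without an entry. The octamer ATGCAAAT, known as the site of POU factors such as POU5F1, was found on either strand in 3 of the 7 (Cdx2, Cdx4 and Evx1) and in 1.74% of all 32851 promoters. The upstream 250 bases of these 3 genes are shown because they share it, with the octamer in capitals (as its reverse complement in Evx1), at positions -147, -93 and -126 from the start site. They lie at chr5:147307250-147307499 (Cdx2, reverse strand), chrX:103321148-103321397 (Cdx4, forward strand) and chr6:52313248-52313497 (Evx1, forward strand).

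Cdx2: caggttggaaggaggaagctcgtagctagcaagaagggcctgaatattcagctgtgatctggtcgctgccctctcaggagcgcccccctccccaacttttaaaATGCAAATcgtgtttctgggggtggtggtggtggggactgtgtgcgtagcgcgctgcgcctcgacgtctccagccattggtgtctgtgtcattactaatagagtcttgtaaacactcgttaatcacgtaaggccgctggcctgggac
Cdx4: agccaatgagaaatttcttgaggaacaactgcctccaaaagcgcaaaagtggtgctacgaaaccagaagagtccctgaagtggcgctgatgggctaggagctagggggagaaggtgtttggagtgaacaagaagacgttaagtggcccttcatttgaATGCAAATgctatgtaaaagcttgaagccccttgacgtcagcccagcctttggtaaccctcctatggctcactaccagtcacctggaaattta
Evx1: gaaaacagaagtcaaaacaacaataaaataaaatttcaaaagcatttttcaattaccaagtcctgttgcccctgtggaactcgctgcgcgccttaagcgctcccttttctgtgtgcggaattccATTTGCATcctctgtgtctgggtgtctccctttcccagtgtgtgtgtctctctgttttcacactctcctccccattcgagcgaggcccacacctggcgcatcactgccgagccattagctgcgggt

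The other letters searched on both strands were CCAAT (4 of 7 promoters, 37.4% of all), the CDX letters TTTATGG or TTTATTG (1, Evx1, 7.2%), the RAR half-sites AGGTCA or GGGTCA (1, Cdx2, 27.5%), ACTACAA (1, Tbx6, 3.24%) and TATAAA (1, Tbx6, 13.6%). None of the 7 held the TCF/LEF letters CTTTGA (5257 of the 32851) or the longer CTTTGAT that contains them (3.73%), the GATA letters AGATAA (11.2%) or the E2F letters TTTGGCGC (0.514%). The ACTACAA of the Tbx6 promoter lay at position 16 from the start site, outside the ZFP143 peak, and is not the match in the printed peak sequence. The match is a description of these windows and not of binding. The 3 genes with the octamer did not share 1 pattern, since Cdx2 and Cdx4 had their highest counts in dTAG + RA and Evx1 in DMSO.

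The genes whose levels were most like that of Cdx1 over the 16 RNA-seq libraries, each table centred on its own mean, were Cldn4 (Pearson r = 0.943), Tbc1d17 (0.926) and Neo1 (0.924) among 13781 genes. These values are descriptions, since libraries of a group share their treatment. Within 25 kb of the 10 start sites, 12 neighbouring entries were tested in the RA experiment. Between dTAG + RA and DMSO + RA, 1 was lower (Aldoa near Tbx6, a glycolytic aldolase, with a log2 difference of -2.90) and 0 higher. Another entry named Aldoa was not called, with 0.18 there and -0.08 in the test of the RA effects. In the test of the RA effects, 1 was more positive (Gdpd3) and 2 more negative (Aldoa and Npm3). The neighbours Pdgfrb (of Cdx1) and Wnt9a (of Wnt3a), named after their values were seen, rose with RA in DMSO by 3.00 and 4.66 and in dTAG by 3.12 and 3.73 on the log2 scale, so that Wnt9a rose in control cells while Wnt3a fell.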

How the data were processed

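Tables of raw counts per gene, deposited by the authors, were used for TT-seq (STAR alignment to mm10, duplicates removed, HTSeq over whole genes including introns) and RNA-seq (STAR gene counts). The ZFP143 peak list was deposited with a fold enrichment score (ratio) and −log10 p-values and q-values, and the CTCF list with positions alone. The members and gene lists were chosen with earlier results of these data known. CPM used TMM-scaled library sizes. Each table was fitted once over 4 groups of 2 libraries in edgeR 4.0.16 (R 4.3.3), for genes above 10 counts in 4 or more of the 8 libraries. RNA-seq calls used glmTreat against 1.5-fold at an adjusted p under 0.01. TT-seq and interaction calls used the quasi-likelihood test, with an adjusted p under 0.05 and a log2 change of more than 0.5 in size. Adjusted p-values are Benjamini-Hochberg over all tested genes. DESeq2 1.42.0 was an alternative. Ratios of summed counts have exact 95% intervals, which cover counting error alone. Lists were described by counts of calls and medians, with no set test. Named list genes were the called ones with the 2 largest changes per list and contrast and at least 100 counts. The fits were tested on simulated data. A promoter window ran from 2000 bp upstream to 1000 bp downstream of a start site, and a peak counted when it overlapped the window and had its centre within 2000 bp of the start.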

Additional observations from a re-analysis of the deposited data

Results flagged for a closer look

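The RA effect differed between depleted and control cells by a test of the difference itself (edgeR interaction term) for 4 of the 6 members tested, all in the positive direction, beside 13.7% of all tested genes in that direction and 18.0% in the negative one. The members were chosen with earlier results of these data known, so these shares are a description. The log2 difference, dTAG minus DMSO, was 1.95 for Cdx1, 5.11 for Wnt3a, 1.47 for Tbx6 and 1.98 for Mixl1. Cells of dTAG + RA had 48 h of dTAG-V1 and those of dTAG 24 h, so these differences include the longer depletion, whose part was not tested. Cdx1 and Wnt3a were called under every alternative run. Tbx6 was not called without replicate 2 of dTAG (1.33), and Mixl1 was not called without replicate 1 of DMSO + RA (1.49) or of dTAG + RA (1.57) or with DESeq2 (2.05). Neither was called with the thresholds of the other RNA-seq contrasts (edgeR adjusted p = 0.058 and 0.0713). Summed pluripotency markers also differed between these groups, with 715 to 1056 CPM in DMSO + RA and 1393 to 1636 CPM in dTAG + RA, and their part in the 4 differences was not tested.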

How the results depend on the processing

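Of 706 log2 values of the 6 members tested in at least 1 table (Cdx1, Wnt3a, Tbx6, Eomes, Mixl1 and Fgf8) under alternatives, 623 kept their direction and side of the threshold, 34 lost a call, 23 gained one and 26 changed sign. With no filter, 2 members (Cdx1 and Wnt3a) were called lower in TT-seq at 2 h and at 6 h and the same 2 higher between 24 h and 6 h. Both had passed the main filter without a call, and both were high in replicate 2 of DMSO and of 24 h dTAG alone. The RNA-seq counts called lower were 1 (Wnt3) at 24, 48 and 72 h with no filter and with filterByExpr. At 72 h the count called higher was 2 with library size as the only scaling, 2 with only the groups compared, 2 with the thresholds used for TT-seq, 0 with DESeq2 and 0 to 1 with a library left out. From 48 h to 72 h it was 1 (Cdx1) with no filter and 2 with the TT-seq thresholds. Before RA, the count called lower was 0 with library size as the only scaling, 0 with DESeq2, 3 with the TT-seq thresholds and 0 to 1 with a library left out. Between dTAG + RA and DMSO + RA, the count called higher was 4 with no filter and with filterByExpr, 5 with the TT-seq thresholds, 1 with DESeq2 and 1 to 3 with a library left out. For RA in DMSO, the count lower was 1 with library size as the only scaling, with DESeq2 and with any library left out, and the count higher was 2 with the TT-seq thresholds. For RA in dTAG, the count higher was 3 with Fgf8 included, and 5 with no filter and with filterByExpr. The RA effects differed for 7 members with no filter and with filterByExpr and for 2 with the RNA-seq thresholds. Members that enter only with a looser filter can pass through the group in which they are high, so the counts that they enlarge lend no support. CTCF peaks lay within 10 kb of 7 members.

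Changes of sign concerned uncalled values. Over libraries left out in TT-seq, Eomes at 2 h ranged from -0.57 to 0.11, Wnt3a at 6 h from -2.76 to 0.020, and at 24 h Wnt3a from -1.70 to 1.84, Cdx1 from -3.54 to 2.29 and Tbx6 from -1.03 to 0.46, with Cdx1 between 24 h and 6 h from -0.56 to 3.66. Without replicate 2 of DMSO and of 24 h together, an alternative chosen after seeing the data, they were 0.11 (Eomes, 2 h), 0.020 (Wnt3a, 6 h), 0.32 (Wnt3a, 24 h), 0.59 (Tbx6, 24 h) and -0.56 (Cdx1, 24 h against 6 h). Over libraries left out in RNA-seq, Eomes at 24 h ranged from -0.53 to 0.073, Cdx1 at 48 h from -0.046 to 0.52, Eomes between dTAG + RA and DMSO + RA from -0.027 to 0.058, Cdx1 for RA in DMSO from -0.30 to 0.62 and Mixl1 for RA in dTAG from -0.42 to 0.39. Eomes between the RA groups was 0.022 with size factors of DESeq2, 0.023 with DESeq2, 0.20 with library size alone and 0.0048 with only the groups compared. Mixl1 for RA in dTAG was -0.059 with no filter and -0.042 with filterByExpr. Library size alone moved the median of all genes by up to 0.39. Causes of these changes were not tested.

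Same-numbered replicates share a number and no stated batch. With the replicate number as a block, 1 member call changed (Mixl1 for RA in DMSO, -1.96, edgeR adjusted p = 0.0123), and the genes called in TT-seq rose from 435 lower and 30 higher to 662 and 87 at 2 h, from 506 and 71 to 956 and 359 at 6 h, from 730 and 361 to 1214 and 1009 at 24 h, and from 0 and 0 to 124 and 94 between 24 h and 6 h. Deviations of same-numbered libraries correlated by 0.20 to 0.65 in TT-seq, -0.05 to 0.06 in the RNA-seq time course and -0.15 to 0.17 in the RA experiment.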
